A study of Mus musculus with 6 samples.

Results

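The peroxisome genes described here are 37 genes named by symbol, 13 peroxins that build the organelle and 24 enzymes or transporters that work in it, out of 34714 genes in the deposited table. All 37 were found, and all 37 were among the 12174 genes tested, those with a mean of at least 1 FPKM over the 6 libraries (fragments per kilobase per mapped total, a level corrected for transcript length and library size). They were measured by RNA sequencing of whole kidney from 3 wild-type and 3 Hspa8 knockout samples. All 6 came from mice 8 weeks old on normal chow. The wild-type titles carry the strain name C57, while the knockout titles carry no strain. The mice listed for the series include a floxed Hspa8 line (C57BL/6J-Hspa8em1flox/Cya) and a Cdh16-Cre line. The Cdh16 promoter is active in kidney tubule epithelium, so a gene deleted through it would remain in other cells. The labels say wild-type or Hspa8 knockout and no more of the alleles the 6 samples carried. Nor do they say whether the 3 replicates were separate mice, so a p-value here speaks of variation among these samples, part or all of which may be technical.

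Peroxisomes are single-membrane organelles that shorten very long and branched fatty acids, oxidise D-amino acids and 2-hydroxy acids, start the synthesis of ether lipids and break down the hydrogen peroxide that their oxidases make. Their matrix proteins are made in the cytosol, bound there by the receptors PEX5 or PEX7, and carried through a docking complex in the membrane. In kidney the organelle is abundant in the proximal tubule, whose cells burn fatty acids for energy. Several of its genes are targets of PPARA, a nuclear receptor that senses fatty acids. HSC70, the chaperone that Hspa8 encodes, folds client proteins in the cytosol. The series asks how it bears on the activation of the SREBP factors that drive lipid synthesis.

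Hspa8 itself was checked first, at 1058, 1092 and 1318 FPKM (wild-type replicates 1 to 3) against 650, 699 and 781 (knockout replicates 1 to 3). The groups did not overlap, the knockout mean was 61.4% of the wild-type mean, and the log2 fold change was -0.70 ± 0.122 (SE) (limma adjusted p = 0.866 over all genes; exact two-sided permutation p = 0.1, the smallest that 3 against 3 can give). The FPKM of a library hold no read totals, so depth is unknown, and they summed to between 381586 and 417123. The tissue carried its proximal tubule markers at high levels, with Slc34a1, the sodium phosphate cotransporter, averaging 1750 ± 130 FPKM (wild-type) against 1706 ± 234 (knockout; SD, n = 3 here and throughout). Of the 16 proximal tubule markers 8 had a positive log2 fold change and 8 a negative one (median -0.00264). Of all tested genes 35.1% lay above 0 (median -0.0399). With library medians, sums or quantiles equalised 11, 11 and 8 of these markers lay above 0, beside 54.1%, 49.8% and 50.8% of all tested genes. All 12 endothelial markers were lower on average in the knockout, with a median of -0.359. Red cell markers summed to between 52.1 and 59.9 FPKM in the wild-type libraries and to 420, 77.6 and 553 FPKM in knockout replicates 1, 2 and 3. In whole tissue fewer cells of a type and less RNA per cell cannot be told apart.

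Peroxisome transcripts were abundant in every library. The 37 genes together took 1.13% to 1.28% of the summed FPKM, and their median level lay at the 90.3 percentile of all tested genes. The enzymes stood well above the machinery that imports them. FPKM are divided by transcript length, so genes can be set side by side. The 24 enzymes and transporters had a median percentile of 96.4, with 13 of them at 100 FPKM or more, while the 13 peroxins had a median percentile of 76 and 0 of them reached 100 FPKM. Prdx5, a peroxiredoxin that removes peroxides in peroxisomes and mitochondria, was the highest member with averages of 903 ± 83.7 FPKM (wild-type) against 872 ± 97.4 (knockout). Catalase (Cat), the haem enzyme that splits hydrogen peroxide, followed with averages of 432 ± 20.3 FPKM (wild-type) against 465 ± 9.72 (knockout). Pecr, the trans-2-enoyl-CoA reductase, came next with averages of 435 ± 5.49 FPKM (wild-type) against 419 ± 22.8 (knockout). The means of Pecr and Cat lay within 1 SD of each other in the wild-type libraries. Pex26, the membrane anchor of the export ATPase, was the lowest member with averages of 6.88 ± 0.756 FPKM (wild-type) against 6.45 ± 0.172 (knockout). Pex10, a ubiquitin ligase of the import machinery, stood next to it with averages of 7.13 ± 1.26 FPKM (wild-type) against 7.39 ± 0.171 (knockout), within the spread of Pex26 in the wild-type libraries.

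**Figure D1:**
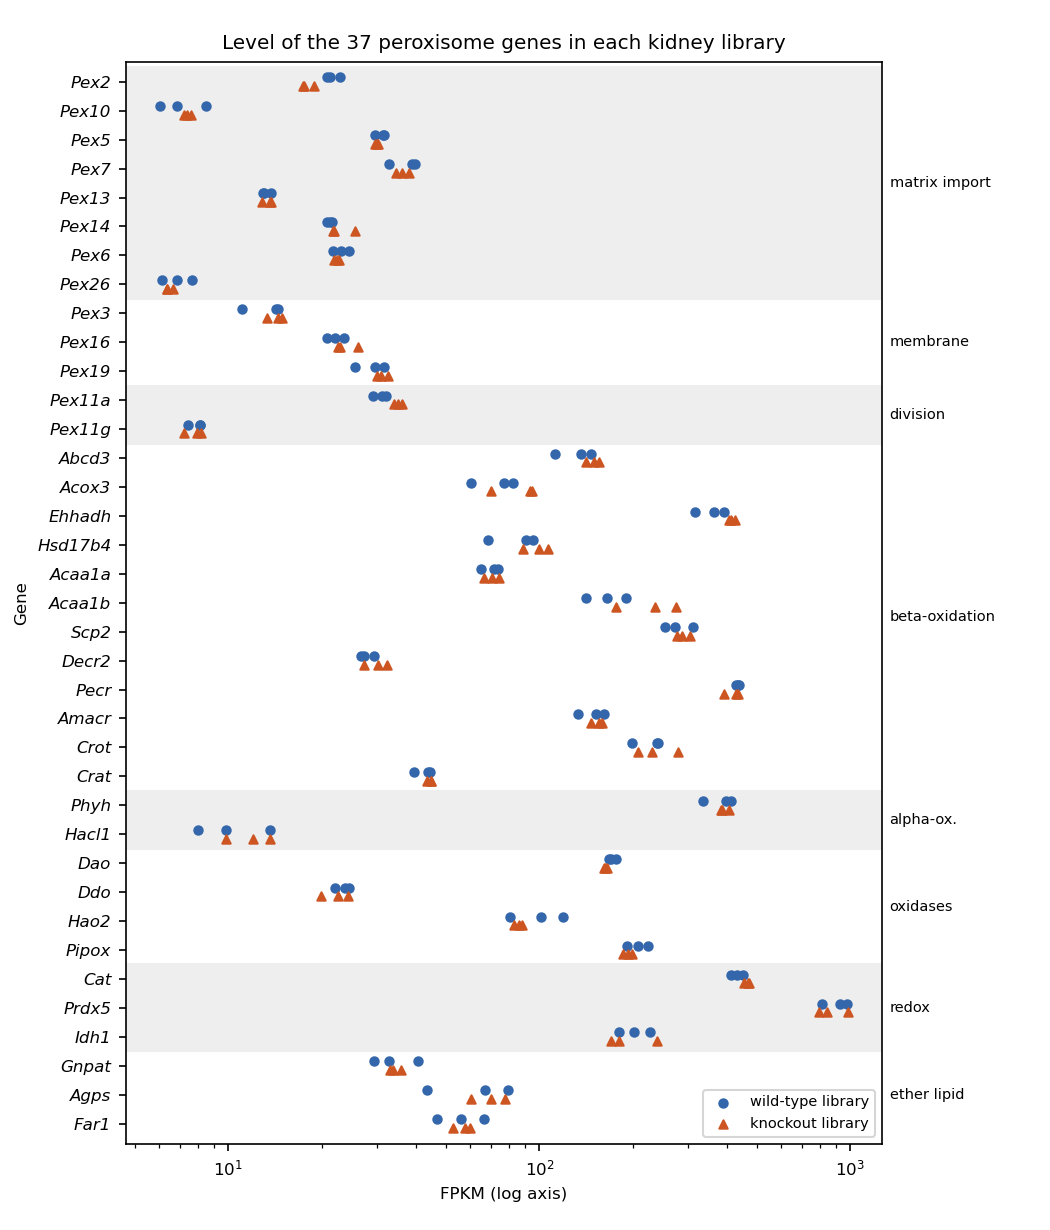
FPKM (log axis) of each of the 37 peroxisome genes in the 3 wild-type (circles) and 3 knockout (triangles) libraries, with rows grouped by role. The peroxins in the upper rows lie below 100 FPKM, the enzymes reach from about the level of Hacl1 to that of Prdx5, and for most genes the circles and triangles overlap.

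No peroxisome gene passed the test between knockout and wild-type. Limma on log2(FPKM + 1) called 0 of the 37 members after Benjamini-Hochberg adjustment, as it called 0 of the 12174 tested genes (0%), and the smallest adjusted p of a member was 0.914, for Pex2. At an unadjusted p under 0.05 there were 2 members higher in the knockout, against 0.953% of all tested genes, and 1 lower, against 4.21%. The differences were small. The median log2 fold change of the 37 was 0.0533, a fold of 1.038, beside -0.0399 for all tested genes, and 24 of the 37 (64.9%) lay above 0 beside 35.1% of all tested genes. Groups did not overlap for 6 members: the knockout was the higher group for 4 (10.8%, beside 2.01% of all tested genes) and the lower for 2 (5.41%, beside 8.57%). The 95% interval of the log2 fold change lay wholly within 0.5 of 0 for 31 of the 37 members, so that larger differences fall outside those intervals, while the half-widths ran from 0.18 to 0.48. Scaling moved these splits. With library medians, sums or quantiles equalised, 28, 28 and 26 members lay above 0, beside 54.1%, 49.8% and 50.8% of all tested genes. The count above 0 and the median rest on wild-type replicate 3. Without it 17 members lay above 0 and 20 below, and the median was -0.009, beside 33.4% of all tested genes above 0 and a median of -0.045.

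**Figure D2:**
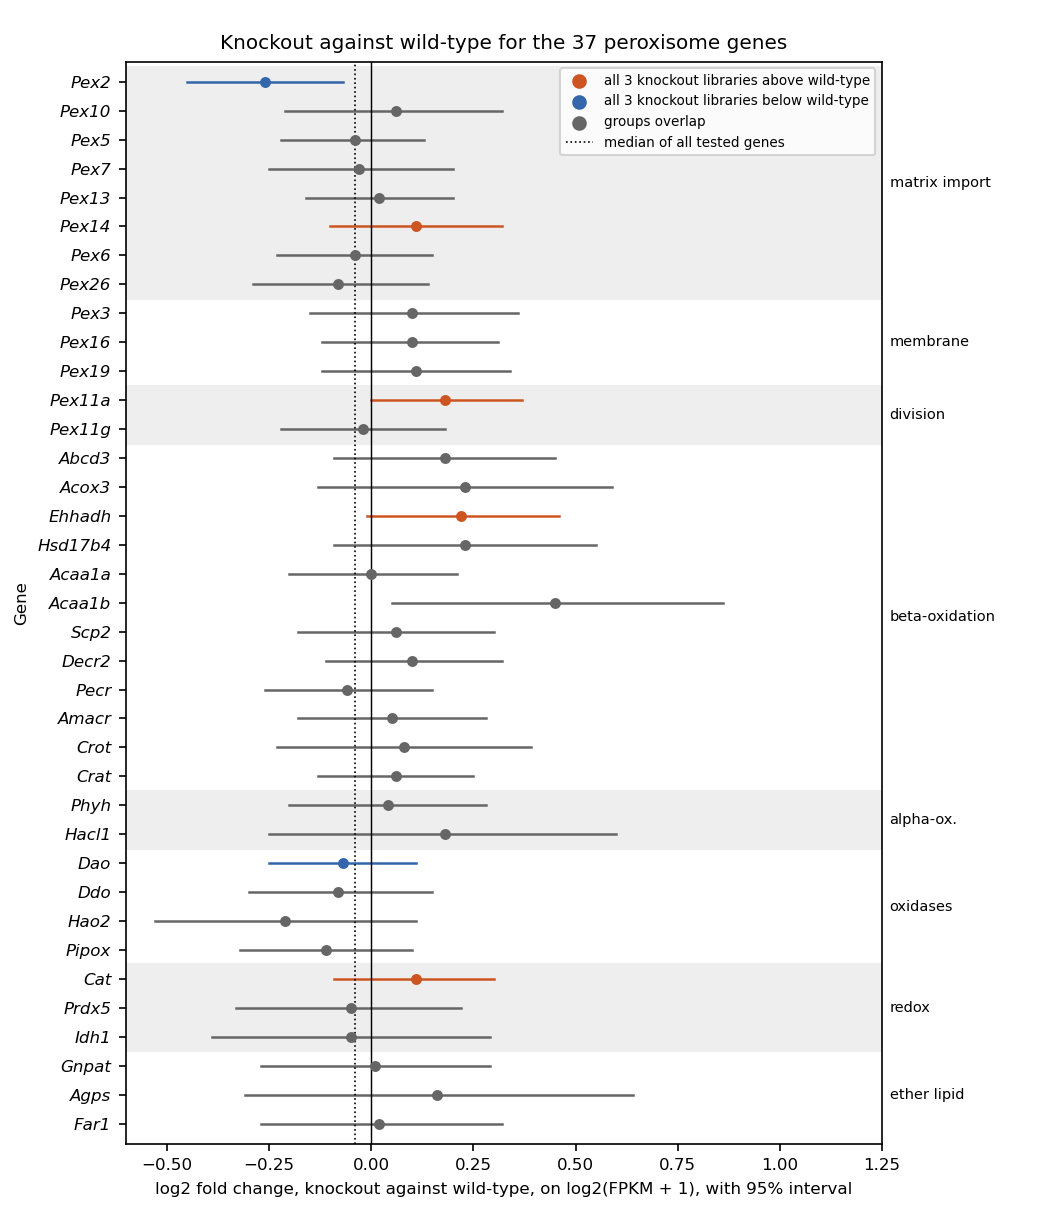
Log2 fold change of each peroxisome gene, knockout against wild-type on log2(FPKM + 1), as a point with its 95% limma interval (n = 3 against 3). Colours mark the 4 genes with all knockout libraries above wild-type and the 2 with all below, and the dotted line is the median of all tested genes at -0.0399. Most intervals span 0, and those of Acaa1b and Pex2 lie farthest from it.

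Among the 8 peroxins of matrix import, 3 (37.5%, beside 35.1% of all tested genes) had a positive log2 fold change. The other 5 had a negative one (median of the 8 -0.0353). This split turned to 6 and 2 with library medians or sums equalised and stayed at 3 and 5 with quantiles equalised. Of all tested genes 54.1%, 49.8% and 50.8% lay above 0 with medians, sums and quantiles equalised. Pex2, a RING ubiquitin ligase of the peroxisome membrane that tags PEX5 for recycling, was the member with the smallest p. It measured 20.7, 21.3 and 22.8 FPKM (wild-type replicates 1 to 3) against 17.4, 18.8 and 17.5 (knockout replicates 1 to 3). Every knockout library lay below every wild-type library. Its log2 fold change was -0.26 ± 0.0819 (SE), 95% interval from -0.45 to -0.07 (limma unadjusted p = 0.0128, adjusted p = 0.914). The groups stayed apart with library medians, sums or quantiles equalised. Of the 16 settings of the processing, only these could bring separated groups into overlap. Pex14, the docking protein that receives loaded PEX5, pointed the other way. It measured 21.6, 20.7 and 21.3 FPKM (wild-type replicates 1 to 3) against 21.7, 25.6 and 21.8 (knockout replicates 1 to 3). The groups did not overlap, but knockout replicates 1 and 3 lay just above the highest wild-type library and replicate 2 stood apart. The log2 fold change of 0.11 had a standard error of 0.091 (limma adjusted p = 0.998) and was 0.036 without knockout replicate 2. Pex5, the receptor for the targeting signal at the end of most matrix proteins, had nearly level values, with averages of 30.9 ± 1.07 FPKM (wild-type) against 30 ± 0.272 (knockout). Pex7, the receptor for the second kind of signal, which Phyh, Agps and the thiolases carry, averaged 37.1 ± 3.73 FPKM (wild-type) against 36.3 ± 1.71 (knockout). The docking partner Pex13 and the ATPase Pex6, which pulls the receptor back out of the membrane, had log2 fold changes of 0.02 (95% interval -0.16 to 0.20) and -0.04 (95% interval -0.23 to 0.15). Those of Pex10 and Pex26 were 0.06 and -0.08.

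The 3 peroxins that place proteins in the membrane had log2 fold changes above 0, and none passed. Without wild-type replicate 3 the split was 2 above and 1 below, with a median of 0.0207. Pex19, the cytosolic receptor for membrane proteins, measured 31.7, 29.6 and 25.5 FPKM (wild-type replicates 1 to 3) against 30.9, 30 and 32.6 (knockout replicates 1 to 3). The groups overlapped, with wild-type replicate 3 the lowest. Its log2 fold change was 0.11 ± 0.0997 (SE), and 0.021 without wild-type replicate 3. Pex3, its anchor in the membrane, had a log2 fold change of 0.10, which was -0.0094 without wild-type replicate 3. Pex16, which recruits PEX3, averaged 22.1 ± 1.43 FPKM (wild-type) against 23.8 ± 1.96 (knockout), with a log2 fold change of 0.10 that was 0.035 without knockout replicate 2.

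The 2 peroxins of division had log2 fold changes on either side of 0, and the difference between them was not tested. Pex11a, a membrane-shaping protein whose gene PPARA activators induce, measured 29.2, 31.2 and 32.2 FPKM (wild-type replicates 1 to 3) against 36.2, 35.2 and 34.2 (knockout replicates 1 to 3). The lowest knockout value exceeded the highest wild-type value, also with library medians, sums or quantiles equalised. The log2 fold change was 0.18 ± 0.0802 (SE), 95% interval from 0.00 to 0.37 (limma unadjusted p = 0.05, adjusted p = 0.967). Leaving out 1 library at a time moved it between 0.15 and 0.22. Pex11g, the related gamma form, averaged 7.88 ± 0.389 FPKM (wild-type) against 7.77 ± 0.516 (knockout), with a log2 fold change of -0.02 that turned positive, to between 0.02 and 0.031, with library medians, sums or quantiles equalised.

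**Figure D3:**
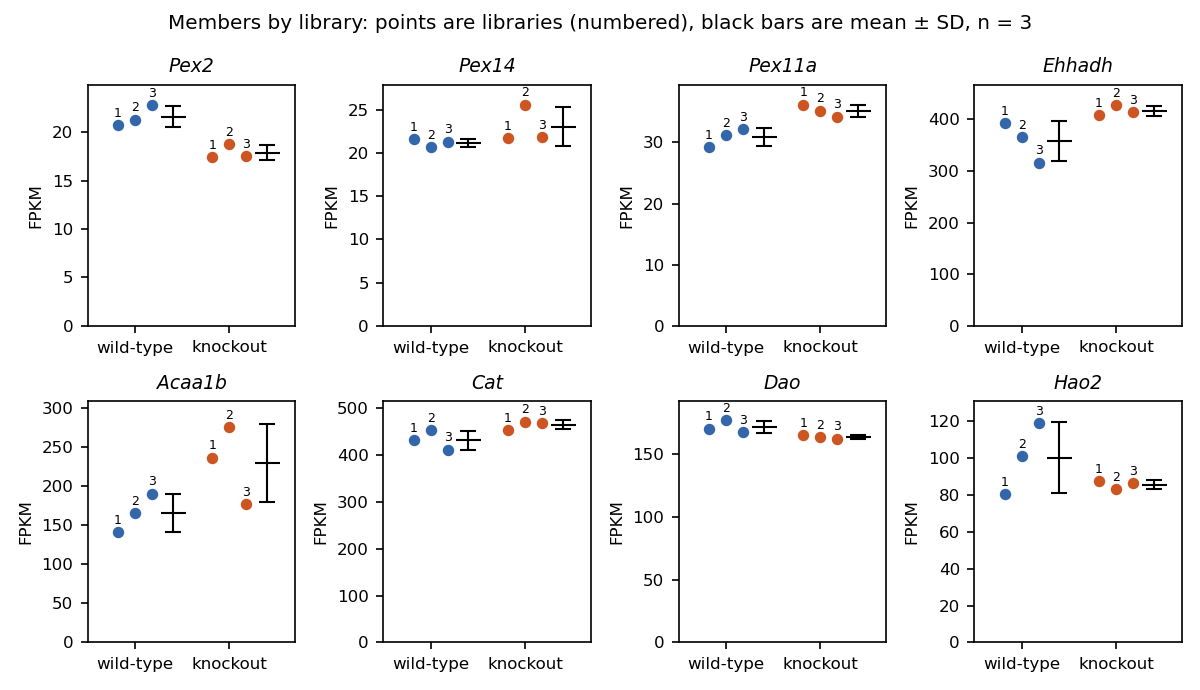
FPKM of 8 peroxisome genes in each library (points numbered by replicate, n = 3 per group, black bars mean ± SD, axes from 0). Knockout points lie below wild-type for Pex2 and Dao and above for Pex14, Pex11a, Ehhadh and Cat, while for Acaa1b knockout replicate 3 and for Hao2 wild-type replicate 1 bring the groups into overlap.

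Fatty acid entry and beta-oxidation held 12 members, of which 11 had a positive log2 fold change and 1 a negative one (median 0.0917). Without wild-type replicate 3 these became 7 above and 5 below with a median of 0.0373. Ehhadh encodes the bifunctional enzyme that hydrates and then dehydrogenates straight-chain enoyl-CoAs, and is a target of PPARA. It measured 392, 365 and 316 FPKM (wild-type replicates 1 to 3) against 408, 427 and 413 (knockout replicates 1 to 3). The knockout libraries lay close together and all above the wild-type libraries, of which replicate 3 was the lowest. The log2 fold change was 0.22 ± 0.103 (SE) (95% interval -0.01 to 0.46, limma adjusted p = 0.973) and 0.14 without wild-type replicate 3. The groups stayed apart with library medians, sums or quantiles equalised. Hsd17b4 encodes the other bifunctional enzyme, which serves branched chains and bile acid precursors. Its values were 95.5, 90.8 and 68.3 FPKM (wild-type replicates 1 to 3) against 100, 88.9 and 107 (knockout replicates 1 to 3). The groups overlapped, and its log2 fold change of 0.23 was 0.08 without wild-type replicate 3. Acox3, the oxidase that opens branched-chain oxidation, measured 82.6, 76.8 and 60.2 FPKM (wild-type replicates 1 to 3) against 93.0, 70.0 and 94.5 (knockout replicates 1 to 3), so knockout replicate 2 lay below wild-type replicates 1 and 2. Its log2 fold change of 0.23 moved to 0.093 when wild-type replicate 3 was left out and to 0.36 when knockout replicate 2 was. Abcd3, the transporter that brings acyl-CoAs into the organelle, averaged 132 ± 18.2 FPKM (wild-type) against 149 ± 7.2 (knockout), with a log2 fold change of 0.18, which was 0.068 without wild-type replicate 3.

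The largest difference among the 37 members was that of Acaa1b, which encodes one of a pair of mouse thiolases that cut off acetyl-CoA at the end of each round. Acaa1b measured 141, 165 and 190 FPKM (wild-type replicates 1 to 3) against 236, 275 and 177 (knockout replicates 1 to 3). Knockout replicates 1 and 2 stood above all wild-type libraries, and knockout replicate 3 lay below wild-type replicate 3. The log2 fold change was 0.45 ± 0.175 (SE), a fold of 1.37, 95% interval from 0.05 to 0.86 (limma unadjusted p = 0.0317, adjusted p = 0.947; exact two-sided permutation p = 0.2). It ran from 0.31 without knockout replicate 2 to 0.63 without knockout replicate 3. Acaa1a, the other thiolase, showed nothing of the kind, at 71.4, 73.9 and 65.0 FPKM (wild-type replicates 1 to 3) against 74.1, 70.3 and 66.4 (knockout replicates 1 to 3), with a log2 fold change of 0.00 (95% interval -0.20 to 0.21). The difference between the responses of these 2 genes was not tested. The ratio of Acaa1b to Acaa1a was 1.98, 2.23 and 2.93 in the wild-type and 3.18, 3.91 and 2.66 in the knockout libraries. The 2 transcripts are close copies. The GENCODE forms compared, 1 per gene and taken by name, had 1762 and 1689 bases. They were 96.6% identical over 1428 aligned positions with an identical run of 327 bases. Of all windows of 100 bases in the Acaa1b transcript, 22.6% also stood in Acaa1a. Reads from shared windows can be assigned to either gene, how shared reads were counted is not known here, and both values are uncertain for that reason. Their summed FPKM of 213, 239 and 255 in wild-type and 310, 346 and 243 in knockout replicates 1, 2 and 3 placed knockout replicate 3 among the wild-type libraries too.

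Of the remaining members of this group none had groups apart. Scp2, a sterol carrier protein whose longer form is a thiolase for branched chains, averaged 279 ± 30.2 FPKM (wild-type) against 290 ± 13.1 (knockout). Amacr, the racemase that turns branched acyl-CoAs into the form the oxidases accept, had log2 fold change 0.05. Both turned negative without wild-type replicate 3, to -0.012 and -0.026. Decr2 and Pecr, reductases for unsaturated enoyl-CoAs, had log2 fold changes of 0.10 and -0.06. Crot, which moves shortened acyl groups onto carnitine for export to mitochondria, spread more between libraries, at 239, 240 and 199 FPKM (wild-type replicates 1 to 3) against 208, 280 and 230 (knockout replicates 1 to 3). The groups overlapped, with the lowest value in wild-type replicate 3 and the highest in knockout replicate 2. Crat, the carnitine acetyltransferase, averaged 42.6 ± 2.75 FPKM (wild-type) against 44.4 ± 0.703 (knockout).

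Promoter sequences are shown for Ehhadh, Pex11a and Cat, members whose knockout libraries all lay above wild-type. Each is the 250 bases before the annotated gene start, from RefSeq (GRCm38.p6), written 5′ to 3′ on the gene's strand, with matched motifs in capitals.
Ehhadh, chr16:21787835-21788084, minus strand: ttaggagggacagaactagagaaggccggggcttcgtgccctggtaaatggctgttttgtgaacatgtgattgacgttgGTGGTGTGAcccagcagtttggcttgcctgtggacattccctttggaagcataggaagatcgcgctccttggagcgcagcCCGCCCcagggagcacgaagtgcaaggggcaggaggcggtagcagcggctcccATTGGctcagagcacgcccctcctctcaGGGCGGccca
Pex11a, chr7:79743132-79743381, minus strand: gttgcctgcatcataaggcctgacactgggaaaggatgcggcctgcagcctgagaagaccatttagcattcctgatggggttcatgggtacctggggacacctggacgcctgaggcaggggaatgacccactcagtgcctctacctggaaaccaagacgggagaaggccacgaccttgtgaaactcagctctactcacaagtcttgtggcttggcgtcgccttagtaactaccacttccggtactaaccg
Cat, chr2:103485154-103485403, minus strand: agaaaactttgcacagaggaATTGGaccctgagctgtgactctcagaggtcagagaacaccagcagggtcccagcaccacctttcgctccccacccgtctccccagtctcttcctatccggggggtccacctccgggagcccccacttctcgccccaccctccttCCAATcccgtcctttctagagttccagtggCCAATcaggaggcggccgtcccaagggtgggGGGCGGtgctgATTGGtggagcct
The motifs searched, on both strands, were the CCAAT box (the letters of its name), the GC box GGGCGG, the TATA box with letters TATAAA, the sterol regulatory element with letters TCACNCCAC, a direct repeat of the kind PPARA and its partner RXR bind (2 copies of AGGNCA with 1 base between them), and the heat shock element as 3 units of GAA in alternating orientation with 2 bases between them. Promoters of 32 of the 37 members were in the table. The window ended at the annotated gene start for 23 of them, and for the other 9 it belonged to a listed start inside the gene. The GC box stood in 21 of the 32 (65.6%) beside 33% of the 27025 promoters of all genes, and CCAAT in 13 (40.6%) beside 34.5%. The 27025 include genes below the level set for the test, while all 37 members passed it. Shares among promoters of tested genes alone were not computed. TATAAA stood in 3 (9.38%) beside 13%. The sterol element letters stood in 1 member, Ehhadh (3.12%), 171 bases before the start, beside 1.03% of all promoters. Neither the PPARA repeat (0.337% of all promoters) nor the heat shock letters (0.403%) stood in any of the 32 windows, and sites farther away were not searched. The members' promoters had a median GC content of 59.4% and 12 CpG, beside 52% and 6 for all. A match to these letters describes the sequence and does not show binding.

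The 2 genes of alpha-oxidation, the route that takes 1 carbon off phytanic acid, overlapped between groups. Phyh, the phytanoyl-CoA hydroxylase, measured 413, 398 and 336 FPKM (wild-type replicates 1 to 3) against 387, 385 and 406 (knockout replicates 1 to 3). Its log2 fold change of 0.04 was -0.047 without wild-type replicate 3. Hacl1, the lyase that follows it, measured 13.6, 9.85 and 7.98 FPKM (wild-type replicates 1 to 3) against 13.6, 9.87 and 12.0 (knockout replicates 1 to 3). The highest values of the 2 groups were level. Its log2 fold change of 0.18 had a wide 95% interval from -0.25 to 0.60 and was 0.014 without wild-type replicate 3.

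The 4 oxidases of amino and hydroxy acids were the 1 role with more than 2 members in which every log2 fold change was below 0, with a median of -0.0926, and this held in each of the 16 settings. None passed. Over all tested genes 35.1% lay above 0, and 54.1%, 49.8% and 50.8% did with library medians, sums or quantiles equalised. Dao, the D-amino acid oxidase, measured 170, 177 and 167 FPKM (wild-type replicates 1 to 3) against 165, 163 and 162 (knockout replicates 1 to 3). The groups were apart by a narrow gap, which was lost with library medians, sums or quantiles equalised, each of the settings that could undo it. The log2 fold change of -0.07 had a standard error of 0.0792 (limma adjusted p = 0.998). Hao2, an oxidase of long-chain 2-hydroxy acids, measured 80.5, 101 and 119 FPKM (wild-type replicates 1 to 3) against 87.7, 83.1 and 86.3 (knockout replicates 1 to 3). The wild-type libraries were far apart and the knockout libraries close together. Its log2 fold change of -0.21 moved to -0.075 when wild-type replicate 3 was left out and to -0.36 when wild-type replicate 1 was. Pipox, which oxidises pipecolic acid and sarcosine, averaged 208 ± 16.2 FPKM (wild-type) against 192 ± 6.37 (knockout). Ddo, the D-aspartate oxidase, averaged 23.5 ± 1.19 FPKM (wild-type) against 22.2 ± 2.23 (knockout), and its log2 fold change of -0.08 was -0.00029 without knockout replicate 3.

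Cat lay higher in the knockout, at 432, 453 and 412 FPKM (wild-type replicates 1 to 3) against 454, 472 and 469 (knockout replicates 1 to 3). Knockout replicate 1 cleared wild-type replicate 2 by little, and the groups stayed apart with library medians, sums or quantiles equalised. The log2 fold change was 0.11 ± 0.0865 (SE) (limma adjusted p = 0.998) and ran from 0.072 to 0.14 when 1 library was left out. Prdx5 measured 811, 924 and 974 FPKM (wild-type replicates 1 to 3) against 843, 980 and 792 (knockout replicates 1 to 3), and knockout libraries were both the highest and the lowest. Idh1, which makes NADPH in cytosol and peroxisomes, measured 227, 201 and 180 FPKM (wild-type replicates 1 to 3) against 239, 170 and 181 (knockout replicates 1 to 3). Its highest libraries were knockout replicate 1 and wild-type replicate 1.

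In the 3 genes of ether lipid synthesis the spread among wild-type libraries enclosed the knockout libraries. Agps, which exchanges the acyl for an alkyl chain, measured 79.4, 67.1 and 43.4 FPKM (wild-type replicates 1 to 3) against 70.1, 60.5 and 77.3 (knockout replicates 1 to 3). Gnpat, the acyltransferase before it, measured 40.7, 32.9 and 29.4 FPKM (wild-type replicates 1 to 3) against 33.2, 33.8 and 35.9 (knockout replicates 1 to 3). Far1, the reductase that supplies the fatty alcohol, measured 66.3, 56.0 and 47 FPKM (wild-type replicates 1 to 3) against 52.9, 57.8 and 59.8 (knockout replicates 1 to 3). For each gene wild-type replicate 1 was the highest and wild-type replicate 3 the lowest of all 6 libraries, so that the knockout libraries lay between them. The log2 fold changes of Agps, Gnpat and Far1 were 0.16, 0.01 and 0.02, and without wild-type replicate 3 they were -0.081, -0.091 and -0.10.

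Wild-type replicate 3 stood apart for many members. It was the lowest of the 6 libraries for 21 of the 37 members (56.8%, beside 24.2% of all tested genes), for 10 of the 12 members of beta-oxidation and for 3 of 3 of ether lipid synthesis, but for 5 of the 13 peroxins and 0 of the 4 oxidases. The median of the 37 relative to their 6-library means was -0.109 on the log2 scale in wild-type replicate 3 and lay between -0.0135 and 0.0457 in the other libraries. Lists of cell type markers also shifted in this library, in both directions. All 12 endothelial markers were highest in this library, which stood 0.412 above the 6-library mean (median of the markers), and their summed level ranged over 162 to 222 FPKM (wild-type) and 122 to 159 FPKM (knockout). The 8 podocyte markers summed to between 78.6 and 110 FPKM over the wild-type libraries and between 68.7 and 89.7 FPKM over the knockout libraries. The 3 tested adipocyte markers were highest in it too (median 0.814), among them Cfd at 15.1 FPKM against 1.27 to 3.79 FPKM in the other libraries. Immediate early genes, which respond within minutes to stimuli, were highest there for 8 of 10. Proximal tubule markers had a median of -0.1 in wild-type replicate 3 and of -0.116 in knockout replicate 2. Collecting duct markers had a median of -0.118 in wild-type replicate 3, of 0.217 in wild-type replicate 1 and of -0.152 in knockout replicate 1. Proximal straight tubule, thick limb and distal, and leukocyte markers had medians of 0.0996, 0.0631 and 0.239 in wild-type replicate 3. The mean of the thick limb and distal markers there was -0.042. These lists shifted more in knockout libraries. Straight tubule markers had medians of -0.304 in knockout replicate 1 and 0.243 in replicate 2. Thick limb and distal markers had -0.191 in knockout replicate 1, and leukocyte markers 0.395 in knockout replicate 2. The part of these markers in the peroxisome values was not tested. The median coefficient of variation of the members was 10.1% over the wild-type and 4.71% over the knockout libraries, beside 10.3% and 9.73% for all tested genes, and 25 of the 37 (67.6%, beside 54.7% of all tested genes) had the larger SD in wild-type.

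**Figure D4:**
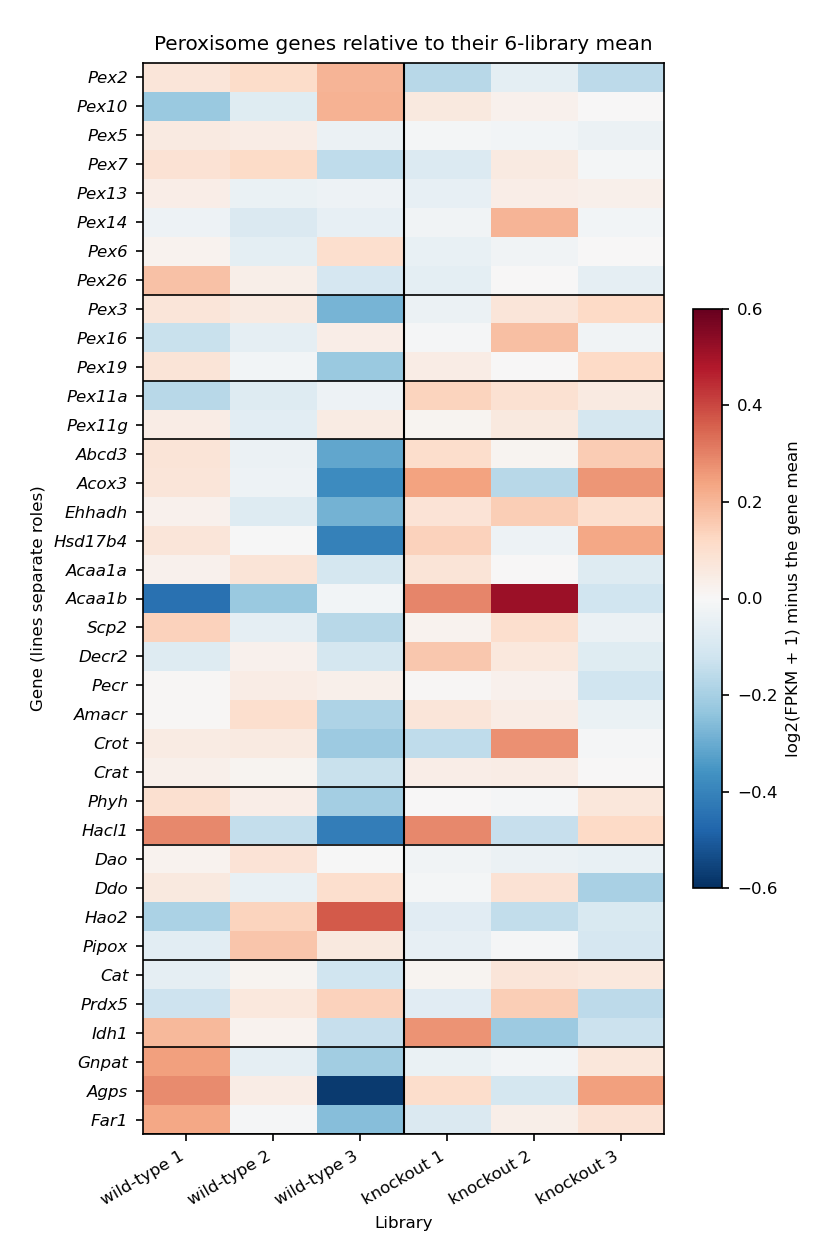
Each peroxisome gene (rows, lines separate the roles) in each library (columns) as log2(FPKM + 1) minus its mean over the 6 libraries, red above and blue below. Wild-type replicate 3 is the lowest library, in blue, in 10 of the 12 beta-oxidation rows and in the alpha-oxidation and ether lipid rows, and it is red for Hao2 and Pex2.

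The wider set of peroxisome genes leaned the same way as the members without any passing. Of 48 other peroxisome genes 42 were tested, of which 34 (81%, beside 35.1% of all tested genes) had a positive log2 fold change and 8 a negative one (median 0.0588). Limma called 0 of them. At an unadjusted p under 0.05 there were 2 higher (4.76%, beside 0.953%) and 0 lower (beside 4.21%). Groups were apart with the knockout higher for 4 (9.52%, beside 2.01%) and lower for 3 (7.14%, beside 8.57%). The split was 23 above 0 and 19 below when wild-type replicate 3 was left out, and again when knockout replicate 2 was. Of all tested genes 33.4% and 32.2% lay above 0 in these fits. Pxmp4, a membrane protein of the organelle, averaged 61.2 ± 2.3 FPKM (wild-type) against 71.9 ± 3.68 (knockout), a log2 fold change of 0.23 (limma adjusted p = 0.941).

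Regulators of peroxisome genes were split much as all genes were in the fit of all libraries without scaling. Of 16 tested regulators 5 (31.2%, beside 35.1% of all tested genes) had a positive log2 fold change and 11 a negative one (median -0.0659). The split was 8 and 8 without wild-type replicate 1 (median -0.00257, beside 41.3% of all tested genes above 0). It was 2 and 14 without wild-type replicate 3 (median -0.114, beside 33.4%). With library medians, sums or quantiles equalised 6, 6 and 5 lay above 0, beside 54.1%, 49.8% and 50.8%. In the fit of all libraries limma called 0, with 0 at an unadjusted p under 0.05. Ppara measured 20, 16.9 and 13.1 FPKM (wild-type replicates 1 to 3) against 17.8, 12.3 and 17.9 (knockout replicates 1 to 3), and its groups overlapped. Rxrb, a partner of the PPAR receptors, averaged 14.4 ± 1.17 FPKM (wild-type) against 12.4 ± 0.171 (knockout) and had the smallest p of this list (limma adjusted p = 0.971). Of the 13 tested genes of organelle fission and turnover 4 (30.8%, beside 35.1%) lay above 0 and 9 below (6 and 7 with library medians, sums or quantiles equalised, 7 and 6 without wild-type replicate 1), with a median of -0.054, and again limma called 0 with 0 at an unadjusted p under 0.05. Dnm1l, the dynamin that cuts peroxisomes and mitochondria, averaged 21.5 ± 0.401 FPKM (wild-type) against 20.5 ± 0.456 (knockout). Mief1, an adaptor that recruits it, averaged 6.76 ± 0.463 FPKM (wild-type) against 5.89 ± 0.117 (knockout) (limma adjusted p = 0.973).

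**Figure D5:**
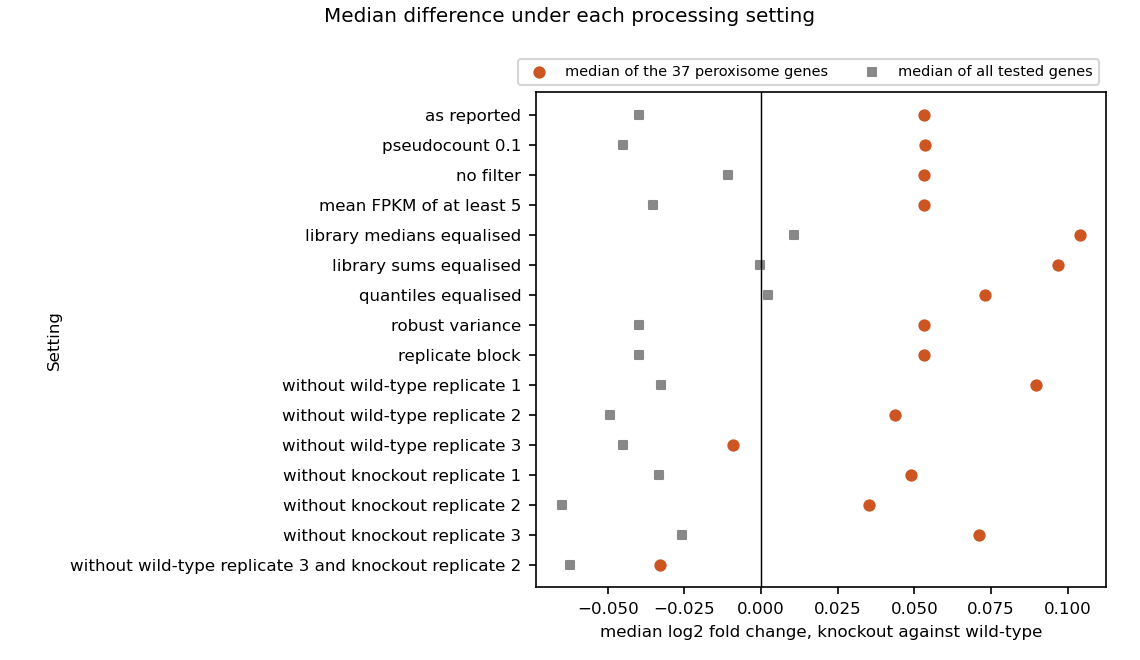
Median log2 fold change, knockout against wild-type, of the 37 peroxisome genes (circles) and of all tested genes (squares) under each of 16 settings. The members' median lies right of the median of all genes in every setting, and left of 0 in the 2 settings without wild-type replicate 3, at -0.009 and -0.033.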

How the data were processed

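RNA of 6 mouse kidney samples was sequenced from libraries made with a SMARTer mRNA kit, per the labels' protocols. FPKM values, 1 per gene and library, are what the authors deposited, and the genome builds named are GRCm38 and mm10 (1 assembly under 2 names), per the submitters' processing notes. Aligner, quantifier and annotation: not given in the sources used here. Low genes showed no steps of whole reads (the commonest ratio between any 2 libraries, binned by 0.005 log2 units, covered at most 0.762% of genes under 0.1 FPKM), so depth is unknown and no counting interval is given. Groups follow the genotype label. Knockout columns carry the letters A8 and were matched to the Hspa8 knockout titles by number.

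The test was limma 3.58.1 (R 4.3.3) on log2(FPKM + 1), two-sided, fitting genotype alone with a variance trend, adjusted by Benjamini-Hochberg over 12174 genes with a mean of at least 1 FPKM, at 0.05, in a fit tested on simulated data. This scale understates fold changes at low levels, and means ± SD are given in FPKM. Alternatives were a pseudocount of 0.1, no filter, a minimum mean of 5 FPKM, equalised medians, sums or quantiles, a robust variance, a block for replicate number, and libraries left out. The members, lists and alternatives were chosen with earlier results of these data known. Values, by library or as mean ± SD, are given for members with groups apart and for the highest and lowest member. The same holds for the 2 with the smallest p in each role. Other members given such values, Slc34a1, Ppara, Dnm1l and the choice of printed promoters were picked after values were seen. Coordinates and promoters are RefSeq's (GRCm38.p6), with promoters at the most upstream of the starts listed in the promoter table, which can lie inside the annotated gene, and all 34714 symbols matched. Transcripts are from GENCODE M21, aligned with Biopython 1.88. 1 result is not reported here.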

Additional observations from a re-analysis of the deposited data

How the results depend on the processing

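Limma called 0 peroxisome genes in each of the 16 settings, and the Hspa8 log2 fold change stayed between -0.77 and -0.59. Over all tested genes it called 0 to 5 with 1 library left out and 5 without both wild-type replicate 3 and knockout replicate 2, none of them members, and the 5 with 1 library left out came without knockout replicate 2. With 1 library left out the members' median log2 fold change ran from -0.009 (without wild-type replicate 3) to 0.090 (without wild-type replicate 1), and was -0.033 without both libraries. It was 0.104, 0.0968 and 0.0731 with library medians, sums and quantiles equalised. Of the 37 members, those with all knockout values higher numbered 5 to 9 with 1 library left out, beside 3.19% to 6.74% of all tested genes. They numbered 10 without both, beside 6.55%, and 7 with medians equalised, beside 4.97%. Members with all knockout values lower numbered 2 to 5 with 1 library left out, beside 11.7% to 23.9%. They numbered 7 without both, beside 31.5%. With medians, sums or quantiles equalised 1 member was lower, beside 4.97%, 6.34% and 5.51%. Fewer samples make separation easier.

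Log2 fold changes turned sign between settings for the members named below. With medians and sums equalised they were 0.0092 and 0.0018 for Pex5, 0.022 and 0.014 for Pex7, 0.0095 and 0.0017 for Pex6, and 0.031 and 0.02 for Pex11g. With quantiles equalised they were 0.03 for Pex11g and 0.065 for Prdx5. Leaving out 1 library, or both named above, gave ranges of -0.04 to 0.18 for Pex10, -0.15 to 0.02 for Pex7, -0.0094 to 0.047 for Pex13, -0.083 to 0.00046 for Pex6, -0.02 to 0.17 for Pex3 and -0.056 to 0.029 for Pex11g. Among enzymes they were -0.05 to 0.044 for Acaa1a, -0.045 to 0.14 for Scp2, -0.037 to 0.12 for Amacr, -0.13 to 0.18 for Crot, -0.0018 to 0.09 for Crat, -0.047 to 0.10 for Phyh, -0.14 to 0.014 for Prdx5 and -0.20 to 0.045 for Idh1. For ether lipid synthesis they were -0.091 to 0.14 for Gnpat, -0.081 to 0.35 for Agps and -0.11 to 0.14 for Far1. The cause was not tested.

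Whether replicate numbers paired the samples could not be settled. Deviations of same-numbered libraries from their group means correlated at 0.307, -0.215 and -0.321, in order of number. Deviations within a group cancel by construction, so these correlations are not independent and cannot decide it. Blocking on the replicate number, limma called 0 genes, and genes at an unadjusted p under 0.05 numbered 417 against 629 without the block. The median of 0.053 and the 4 and 2 members with groups apart cannot change under this block. Depth is unknown, so counting error could not be set beside any difference.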
